A study of Mus musculus with 20 samples.

Results

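The growth hormone to STAT5 and IGF1 axis of the liver was followed through 10 genes, chosen by their symbols from the 54532 genes counted in this series. They are the receptor *Ghr*, the kinase *Jak2*, the transcription factors *Stat5a* and *Stat5b*, the secreted products *Igf1* and *Igfals*, the feedback inhibitors *Socs2* and *Cish*, and the transcriptional repressors *Bcl6* and *Cux2*. All 10 were found in the table, and 9 passed the filter on low counts. Fasted liver RNA came from 20 male C57BL/6 mice, 5 per group and 1 library per mouse. Every mouse, controls included, was first made obese by a high-fat diet (HFD) lasting 12 weeks, so no group had been lean throughout. Sham Chow and RYGB Chow mice then had sham surgery or Roux-en-Y gastric bypass (RYGB), which routes food past the stomach and upper small bowel, and ate chow for 8 weeks. Sham HFD and RYGB HFD mice had the same operations and stayed on HFD for those 8 weeks. The comparisons ask how surgery acted on each diet, how diet acted after each operation, and whether the effect of diet differed with surgery. The authors report that Sham HFD mice were heavier than all other groups. In every comparison that includes Sham HFD, diet or surgery therefore cannot be told apart from body weight.

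Growth hormone from the pituitary binds its receptor on hepatocytes, which activates the kinase JAK2 and through it the transcription factors STAT5A and STAT5B. STAT5 drives *Igf1*, the growth factor that the liver supplies to the blood, and *Igfals*, whose product holds IGF1 in a circulating complex. It also drives *Socs2* and *Cish*, whose products damp signalling at the receptor, and growth hormone lowers *Bcl6*, a repressor that can occupy STAT5 sites. Male rodents release growth hormone in pulses with quiet intervals between them, whereas females release it more evenly, and liver STAT5 follows this pattern. Many liver genes therefore differ between the sexes, and *Cux2* is a repressor expressed mainly in female liver. Hormone levels in the blood were not analysed here.

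The STAT5 recognition motif, TTCNNNGAA, reads the same on both strands, and promoter windows of 300 bases (250 before to 50 after each RefSeq start, GRCm38.p6) were searched for it. It occurred in 8.3% of 32851 windows of all genes, and 0.457% held at least 2 matches. Of the 10 members, 9 had a window, with 16 windows in all. *Socs2* had no window in the promoter set used, so its start was not searched. The motif lay in 5 windows, which belonged to *Cish*, *Igfals* and *Bcl6*. The stretch from 200 bases before to 30 after the start is shown for 4 of these windows, because these are the members whose start regions carry the letters of the motif, which are in capitals. A match is a description of the sequence and not evidence of binding. Sequence outside the windows was not searched, so a member without a match may carry the motif elsewhere.
Cish, chr9:107296459-107296688, plus strand: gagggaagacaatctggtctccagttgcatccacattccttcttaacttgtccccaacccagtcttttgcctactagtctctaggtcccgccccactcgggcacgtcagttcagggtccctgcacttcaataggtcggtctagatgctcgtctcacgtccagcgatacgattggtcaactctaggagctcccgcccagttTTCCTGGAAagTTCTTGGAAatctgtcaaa
Igfals, chr17:24878031-24878260, plus strand: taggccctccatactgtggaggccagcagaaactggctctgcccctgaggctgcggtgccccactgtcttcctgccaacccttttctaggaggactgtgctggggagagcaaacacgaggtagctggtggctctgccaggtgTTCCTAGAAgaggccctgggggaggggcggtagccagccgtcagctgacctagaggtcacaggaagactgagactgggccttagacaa
Bcl6, outer start, chr16:23988823-23989052, minus strand: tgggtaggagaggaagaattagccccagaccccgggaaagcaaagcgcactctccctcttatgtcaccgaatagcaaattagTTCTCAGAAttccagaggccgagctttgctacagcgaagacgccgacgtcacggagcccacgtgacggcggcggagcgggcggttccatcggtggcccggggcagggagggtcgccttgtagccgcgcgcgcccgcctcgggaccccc
Bcl6, inner start, chr16:23981254-23981483, minus strand: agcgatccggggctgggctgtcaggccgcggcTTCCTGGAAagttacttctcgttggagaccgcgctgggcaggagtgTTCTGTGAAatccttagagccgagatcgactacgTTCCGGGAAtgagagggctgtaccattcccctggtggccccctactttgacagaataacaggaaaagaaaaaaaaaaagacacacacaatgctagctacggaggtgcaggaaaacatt
In *Cish* the 2 matches began at positions 1 and 12, counted from the first transcribed base. In *Igfals* the match shown began at position -58, and a match at another start of the gene began at position -236 (chr17:24877608-24877616, plus strand). The outer *Bcl6* start had a match at position -118 and the inner start had 3, at positions -168, -122 and -88. The inner start lies within the gene, whose annotated span is chr16:23965052-23988852.

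Between 14604854 and 22537498 reads per mouse were counted, and the 10 most abundant genes took 14.4% to 19.8% of them. Levels are given as CPM, counts scaled to a common library size, with TMM factors that lay between 0.916 and 1.13. All 6 hepatocyte markers were detected, with summed levels of 67100 to 118000 CPM, while the 5 exocrine pancreas markers summed to at most 4.01 CPM. A single edgeR quasi-likelihood model of the 20 mice gave two-sided tests, with Benjamini-Hochberg adjustment over 12289 genes. A gene was called at an adjusted p below 0.05. Each log2 fold change is of the second group named over the first, and its standard error (SE) and 95% interval come from the same model. Positions are on GRCm38 (mm10).

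With sham surgery, 3 STAT5-driven genes of the axis were lower on HFD than on chow, while *Cish*, also driven by STAT5, did not pass the test. *Igf1*, *Igfals* and *Socs2* fell and *Stat5a* rose in Sham Chow vs. Sham HFD, which makes 4 of 9 tested members called, where 21.6% of all tested genes were. With HFD, mice with RYGB had higher levels of *Igf1*, *Igfals* and *Socs2* than sham mice. These 3 of 9 members were all called higher in Sham HFD vs. RYGB HFD, where 16.4% of all tested genes were called and 8.54% were called higher. In Sham Chow vs. RYGB Chow, edgeR called 0 of 9 members (0.057% of all tested genes), and 2, *Igf1* and *Igfals*, had an unadjusted p below 0.05 (10.8% of all tested genes). In RYGB Chow vs. RYGB HFD, edgeR again called 0 of 9 (3.65% of all tested genes), with 2, *Ghr* and *Igfals*, at an unadjusted p below 0.05 (18.8%). DESeq2 and limma-voom called 0 members in both of these comparisons. The groups overlapped for all 9, and did not for 1.33% and 5.05% of all tested genes. Without RYGB HFD replicate 2, only *Igf1* was still called in Sham HFD vs. RYGB HFD. In bulk liver, fewer cells of a type and less RNA per cell cannot be told apart. The Sham HFD mice stand in both of the comparisons with calls, and the values of each are given side by side.

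**Figure D1:**
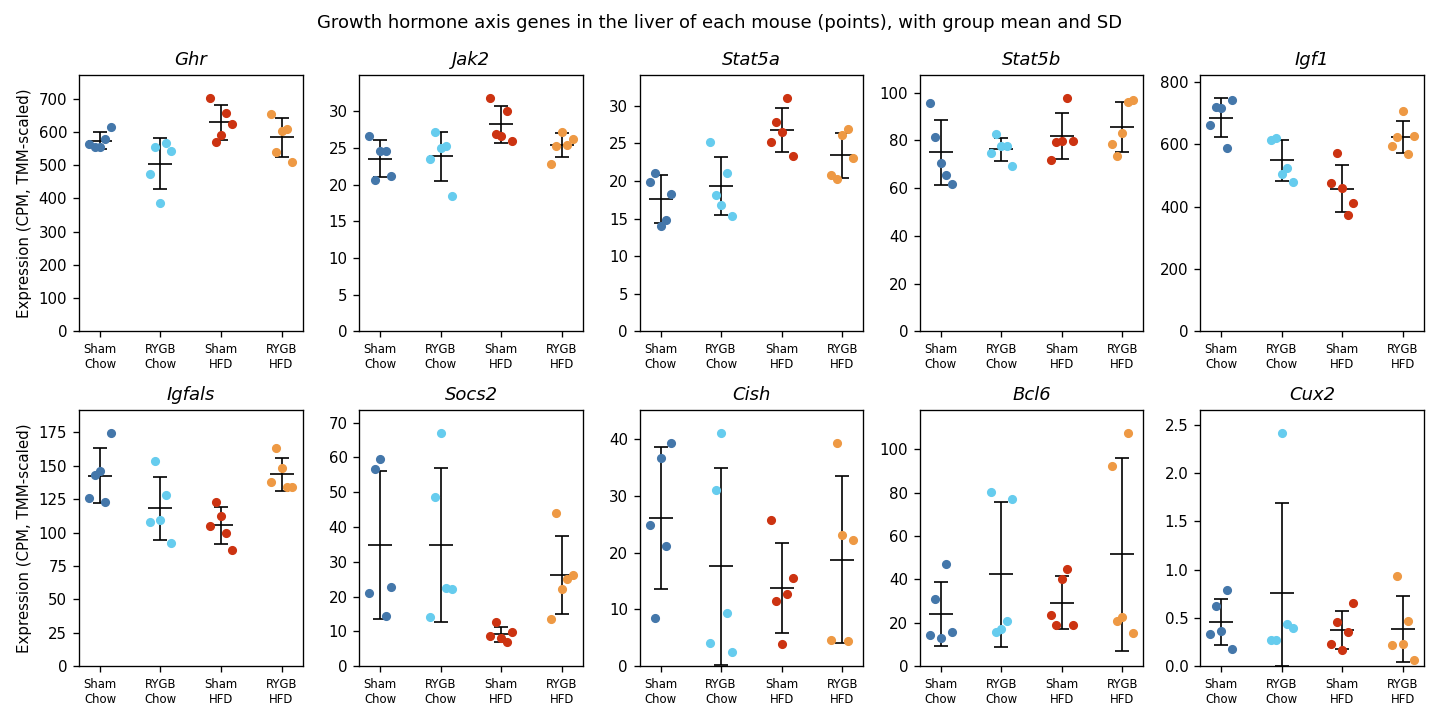
Level of the 10 genes in CPM (vertical axis, TMM-scaled, linear from 0) for each of the 4 groups (horizontal axis). Points are mice, the wide tick is the group mean and the bars are 1 SD, cut at 0. All 5 *Socs2* points of Sham HFD lie between 7.01 and 12.7 CPM, below every point of the other groups, while *Cish* and *Bcl6* spread widely within each group.

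*Ghr* (ENSMUSG00000055737, chr15:3317760-3583492, minus strand) encodes the growth hormone receptor. Its level was 573 ± 25.4 CPM (SD, n = 5) in Sham Chow, 505 ± 75.8 (n = 5) in RYGB Chow, 629 ± 52.8 (n = 5) in Sham HFD and 584 ± 57.6 (n = 5) in RYGB HFD. Single mice ran from 386 to 702 CPM, and the groups overlapped in all 4 comparisons. The largest log2 difference was 0.21 in RYGB Chow vs. RYGB HFD (SE 0.096, 95% interval 0.0087 to 0.41, adjusted p = 0.244). Its diet difference in sham mice was 0.13 (interval -0.067 to 0.33, adjusted p = 0.331), and with library sizes in place of TMM factors it was 0.26 (adjusted p = 0.0295), in a fit that moved the median of all tested genes in this comparison to 0.122.

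*Jak2* (ENSMUSG00000024789, chr19:29251828-29313080, plus strand) encodes the kinase bound to the receptor. Its level was 23.5 ± 2.54 CPM (SD, n = 5) in Sham Chow, 23.9 ± 3.30 (n = 5) in RYGB Chow, 28.2 ± 2.53 (n = 5) in Sham HFD and 25.4 ± 1.61 (n = 5) in RYGB HFD. The Sham HFD mice, at 25.9 to 31.8 CPM, overlapped only slightly with the Sham Chow mice, at 20.7 to 26.7 CPM. Its log2 difference between these groups was 0.26 (SE 0.097, interval 0.060 to 0.46) and did not pass the threshold (adjusted p = 0.0585). It passed with library sizes only (0.39, adjusted p = 0.0164), with a filter at 5 CPM (adjusted p = 0.0415), without Sham Chow replicate 1 (0.0333) and without RYGB Chow replicate 5 (0.0245).

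*Stat5a* (ENSMUSG00000004043, chr11:100859351-100885169, plus strand) and *Stat5b* (ENSMUSG00000020919, chr11:100780731-100850724, minus strand) lie side by side and encode the 2 STAT5 proteins, of which STAT5B carries most of the growth hormone signal in liver. *Stat5a* measured 19.9, 21.1, 13.97, 14.8 and 18.3 CPM in the 5 Sham Chow mice. In RYGB Chow it measured 25.2, 18.2, 16.8, 21.1 and 15.4 CPM. In Sham HFD it measured 25.2, 27.9, 26.5, 31.0 and 23.3 CPM, so that every Sham HFD mouse lay above every Sham Chow mouse. In RYGB HFD it measured 20.8, 20.3, 26.1, 26.9 and 23.1 CPM, within and below the range of Sham HFD. *Stat5a* was 1.52-fold higher (1.25 to 1.85, 95% interval) in Sham HFD than in Sham Chow, a log2 change of 0.60 (SE 0.14, adjusted p = 0.00366). In the same comparison 6 of 8 macrophage and 5 of 5 stellate cell markers were higher and 0 lower. The part of these cells in the rise of *Stat5a* was not tested. Between Sham HFD and RYGB HFD the log2 change of *Stat5a* was -0.19 (interval -0.47 to 0.087, adjusted p = 0.356), and in the 2 remaining comparisons 0.13 (adjusted p = 0.777) and 0.28 (adjusted p = 0.281).

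*Stat5b* stayed between 61.8 and 97.7 CPM in single mice, and its group means ran from 75.0 to 85.6 CPM. Its log2 differences in the 4 comparisons lay between 0.026 and 0.16 with adjusted p-values from 0.445 to 0.962, and their intervals together spanned -0.20 to 0.39. *Stat5a* overlaps *Stat3*, which runs on the opposite strand and had 509% of its counts. The libraries kept strand, but whether the counting used it is not given in the sources used here, so reads shared by these genes could have been lost or misassigned. The log2 change of *Stat3* in Sham Chow vs. Sham HFD was 0.12 (adjusted p = 0.396). Reads that align to *Stat5a* and *Stat5b* alike add the same kind of uncertainty.

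**Figure D2:**
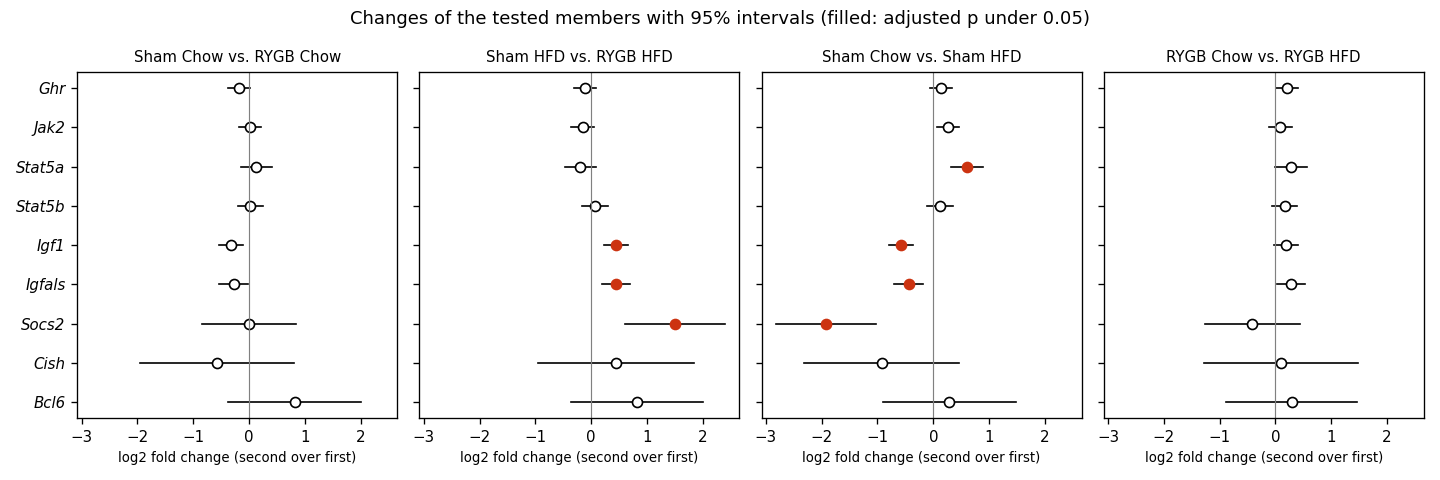
Log2 fold change (horizontal axis, second group over first) of the 9 tested members (vertical axis) in the 4 comparisons (panels), from the edgeR model of all 20 mice. Circles are the estimates, lines their 95% intervals, and filled circles have an adjusted p below 0.05. *Igf1*, *Igfals* and *Socs2* are filled on the right in Sham HFD vs. RYGB HFD and on the left in Sham Chow vs. Sham HFD, and no circle is filled in the outer panels.

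*Igf1* (ENSMUSG00000020053, chr10:87858265-87937042, plus strand) measured 661, 719, 718, 587 and 744 CPM in Sham Chow. In RYGB Chow it measured 614, 620, 504, 525 and 480 CPM. In Sham HFD it measured 476, 572, 459, 375 and 411 CPM, so that every Sham HFD mouse lay below every Sham Chow mouse. In RYGB HFD it measured 596, 623, 707, 570 and 626 CPM, and only the highest Sham HFD mouse reached this range. The group means were 686 ± 62.9 (SD, n = 5) in Sham Chow, 549 ± 64.6 (n = 5) in RYGB Chow, 459 ± 75.2 (n = 5) in Sham HFD and 624 ± 51.5 (n = 5) in RYGB HFD.

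*Igf1* in Sham HFD was at 0.669 of its Sham Chow level (95% interval 0.574 to 0.779), a log2 change of -0.58 (SE 0.11, adjusted p = 0.000697). It was 1.36-fold higher in RYGB HFD than in Sham HFD (1.17 to 1.59), a log2 change of 0.44 (SE 0.11, adjusted p = 0.00588). Surgery on chow gave a log2 change of -0.32 (interval -0.54 to -0.10), with an unadjusted p of 0.00609 that did not hold after adjustment (0.271). In RYGB Chow vs. RYGB HFD it was 0.19 (interval -0.033 to 0.41, adjusted p = 0.362). Both calls of *Igf1* held under every alternative run, with adjusted p-values up to 0.00369 for diet in sham mice and up to 0.0224 for surgery on HFD.

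*Igfals* (ENSMUSG00000046070, chr17:24865997-24882010, plus strand) measured 126, 143, 146, 123 and 175 CPM in Sham Chow. In RYGB Chow it measured 108, 154, 109, 128 and 92.1 CPM. In Sham HFD it measured 105, 123, 113, 99.6 and 86.7 CPM. In RYGB HFD it measured 138, 163, 149, 134 and 134 CPM, so that every RYGB HFD mouse lay above every Sham HFD mouse, while the lowest Sham Chow mouse reached the Sham HFD range. For diet in sham mice the log2 change was -0.44 (SE 0.12, interval -0.70 to -0.18, adjusted p = 0.0162). For surgery on HFD it was 0.45 (SE 0.12, interval 0.19 to 0.70, adjusted p = 0.0169). Surgery on chow gave -0.27 (interval -0.53 to -0.012, adjusted p = 0.439), and diet after RYGB gave 0.28 (interval 0.021 to 0.54, adjusted p = 0.227).

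The calls of *Igfals* were less firm than those of *Igf1*. With library sizes in place of TMM factors neither passed, at adjusted p-values of 0.0820 for diet in sham mice and 0.0566 for surgery on HFD. That scaling moved the median of all tested genes to 0.122 and -0.083, and less these medians the log2 changes of *Igfals* were -0.427 and 0.436, close to those with TMM factors. The first was also lost without Sham Chow replicate 5 (adjusted p = 0.0592). The second was lost without Sham HFD replicate 5 (0.0525) and without RYGB HFD replicate 2 (0.0552).

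*Socs2* (ENSMUSG00000020027, chr10:95385362-95417180, minus strand) encodes a suppressor that marks the growth hormone receptor for degradation, and loss of it causes overgrowth in mice. It measured 20.9, 56.6, 59.4, 14.6 and 22.7 CPM in Sham Chow. In RYGB Chow it measured 14.3, 48.5, 67.0, 22.4 and 22.2 CPM. In Sham HFD it measured 8.58, 12.7, 7.98, 7.01 and 9.78 CPM, and every one of these lay below all 15 mice of the other groups. In RYGB HFD it measured 13.5, 44.0, 22.1, 25.0 and 26.3 CPM. *Socs2* in Sham HFD was at 0.264 of its Sham Chow level (95% interval 0.142 to 0.491), a log2 change of -1.92 (SE 0.43, adjusted p = 0.00354). It was 2.84-fold higher in RYGB HFD than in Sham HFD (1.53 to 5.27, adjusted p = 0.0195).

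The second of these calls was lost with limma-voom (adjusted p = 0.0591) and without RYGB HFD replicate 2 (a log2 change of 1.22, adjusted p = 0.0685). On chow the log2 change of *Socs2* with surgery was -0.0041, with an interval from -0.85 to 0.84. In RYGB Chow vs. RYGB HFD it was -0.41 (interval -1.26 to 0.44, adjusted p = 0.641). Members whose groups did not overlap numbered 3 of 9 in Sham Chow vs. Sham HFD (*Stat5a*, *Igf1* and *Socs2*), where 16.5% of all tested genes did not. They numbered 2 of 9 in Sham HFD vs. RYGB HFD (*Igfals* and *Socs2*), where 14.7% did not.

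*Cish* (ENSMUSG00000032578, chr9:107296026-107302784, plus strand) encodes a second inhibitor of the same family and carries the paired motif at its start shown above. It measured 24.8, 8.49, 36.6, 21.2 and 39.2 CPM in Sham Chow. In RYGB Chow it measured 4.03, 30.9, 41.0, 9.43 and 2.49 CPM. In Sham HFD it measured 25.7, 11.4, 3.89, 12.6 and 15.5 CPM. In RYGB HFD it measured 4.68, 39.3, 23.1, 4.50 and 22.3 CPM. The highest and lowest mice of a group differed by 4.62-fold in Sham Chow and by 16.5-fold in RYGB Chow, and all groups overlapped. The log2 change was -0.92 for diet in sham mice (interval -2.31 to 0.47, adjusted p = 0.333) and 0.45 for surgery on HFD (interval -0.94 to 1.85, adjusted p = 0.693). These intervals hold changes as large as those of *Socs2*, so a like response of *Cish* could not be told from none.

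*Bcl6* (ENSMUSG00000022508, chr16:23965052-23988852, minus strand) encodes the repressor that growth hormone lowers. It measured 14.4, 30.8, 13.0, 47.0 and 15.6 CPM in Sham Chow. In RYGB Chow it measured 80.6, 15.8, 17.3, 20.9 and 77.2 CPM. In Sham HFD it measured 23.7, 18.9, 40.0, 45.1 and 19.2 CPM. In RYGB HFD it measured 92.2, 20.7, 22.6, 108 and 15.2 CPM. The 4 highest levels, 77.2 to 108 CPM, all came from mice with RYGB, 2 on each diet, while the other 6 mice with RYGB lay between 15.2 and 22.6 CPM, inside the range of the sham mice. With surgery the log2 change was 0.82 on chow (interval -0.38 to 2.02, adjusted p = 0.65) and 0.82 on HFD (interval -0.37 to 2.00, adjusted p = 0.355). It was 0.29 in both comparisons of diet, with adjusted p-values of 0.75 in sham mice and 0.845 in mice with RYGB.

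*Cux2* (ENSMUSG00000042589, chr5:121856366-122050102, minus strand) was close to the limit of detection in these male livers, with 1 to 18 counts in 19 of the 20 mice. Its group means were 0.459 ± 0.241 CPM (SD, n = 5) in Sham Chow, 0.376 ± 0.194 (n = 5) in Sham HFD and 0.385 ± 0.341 (n = 5) in RYGB HFD. In RYGB Chow, 4 mice lay between 0.269 and 0.440 CPM and RYGB Chow replicate 3 at 2.42 CPM, from 44 counts. It failed the filter on low counts, and exact permutation tests (two-sided, on log2 of CPM + 0.5) gave p-values of 0.484 to 0.913 over the 4 comparisons. A test of 5 mice against 5 allows no p below 0.00794. In edgeR without the filter the adjusted p-values of *Cux2* ran from 0.561 to 1.0.

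The effect of diet on *Igf1* and *Igfals* differed between sham mice and mice with RYGB. The surgery by diet interaction, which is the log2 change in RYGB Chow vs. RYGB HFD less that in Sham Chow vs. Sham HFD, was 0.77 for *Igf1* (SE 0.15, interval 0.46 to 1.08, adjusted p = 0.00597). For *Igfals* it was 0.72 (SE 0.18, interval 0.35 to 1.08, adjusted p = 0.0217). These 2 of 9 members were called, where 5.06% of all tested genes were. The group means of *Igf1* with sham and RYGB were 686 and 549 CPM on chow but 459 and 624 CPM on HFD, and the second of these differences passed its test. The *Igfals* call was lost with library sizes only (adjusted p = 0.0588) and without Sham Chow replicate 5 (0.0501).

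For *Socs2* the interaction was 1.51 (SE 0.59, interval 0.28 to 2.73) and did not pass (adjusted p = 0.142). A different response of *Socs2* to diet after the 2 operations was therefore not shown, although its diet effect was called in sham mice alone. With the replicate number as a block, which the labels do not define and the data gave no sign of pairing, the adjusted p was 0.0468. The interaction was -0.33 for *Stat5a* (interval -0.73 to 0.072, adjusted p = 0.346), 0.075 for *Ghr* (adjusted p = 0.801) and 1.02 for *Cish* (interval -0.94 to 2.98, adjusted p = 0.581).

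Per kilobase of annotated exon, *Igf1* (69.3 ± 6.35 CPM per kb, SD, n = 5) and *Ghr* (63.3 ± 2.80) led the axis in Sham Chow, and the SDs of these neighbours overlapped. *Igfals* (45.0 ± 6.52) and *Stat5b* (13.5 ± 2.46) followed, each set apart from its neighbours by more than the SDs. *Jak2* (4.67 ± 0.504), *Cish* (4.06 ± 1.94), *Socs2* (3.65 ± 2.24), *Bcl6* (3.61 ± 2.19) and *Stat5a* (2.47 ± 0.439) formed a run in which no neighbours were set apart beyond their SDs. *Cux2* came last at 0.0456 ± 0.0239 CPM per kb. In Sham HFD the order changed at the top, where *Ghr* (69.5 ± 5.83) stood above *Igf1* (46.3 ± 7.59). It also changed below *Jak2*, where *Bcl6* (4.383 ± 1.835), *Stat5a* (3.76 ± 0.409), *Cish* (2.15 ± 1.23) and *Socs2* (0.966 ± 0.229) followed, with *Cux2* again last. The SDs of *Cish* and *Socs2* overlapped. The lengths are the summed exons of all annotated transcripts, so the levels of genes with long rare exons are understated.

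Mice of the same group differed far more in *Socs2*, *Cish* and *Bcl6* than in the other members. The within-group SD on the log2 scale was 1.26 for *Cish*, 1.00 for *Bcl6* and 0.718 for *Socs2*, at percentiles 99.9, 99.6 and 98.6 of all tested genes, whose median SD was 0.205. The other 6 tested members had SDs of 0.152 to 0.222, at percentiles 27.5 to 55.7. *Socs2* varied least in Sham HFD, with a within-group SD of 0.309 and a 1.81-fold range, against SDs of 0.597 to 0.898 in the other groups.

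Deviations from the group mean were then compared between members over the 20 mice in 9 pairs, with permutation within groups and Benjamini-Hochberg adjustment over the pairs. *Cish* and *Bcl6* deviated in opposite directions (Pearson's r = -0.831, permutation p = 0.00051, adjusted p = 0.00459, and Spearman's rho = -0.782, permutation p = 0.00142, adjusted p = 0.0128). Without the 2 mice farthest from the median of *Cish*, r was -0.808 (adjusted p = 0.0193). In the 4 mice with the highest *Bcl6*, *Cish* lay between 2.49 and 4.68 CPM. The deviations of *Bcl6* left a gap between -0.207 and 0.528 that set 8 mice apart from 12. *Cish* was below its group mean in 7 of the 8 mice above the gap and in 2 of the 12 below it. Within the 12 mice r was -0.366 (permutation p = 0.241) and within the 8 mice it was -0.235 (exact permutation p = 0.567). Each side holds fewer mice and a narrower range of *Bcl6*, so these values leave undecided whether the relation holds within a side. Taken separately, r was -0.921 in the 10 mice with RYGB (adjusted permutation p = 0.0222, with rho of -0.758 at 0.0915) and -0.561 in the 10 sham mice (adjusted permutation p = 0.263), and the difference between them was not tested.

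**Figure D3:**
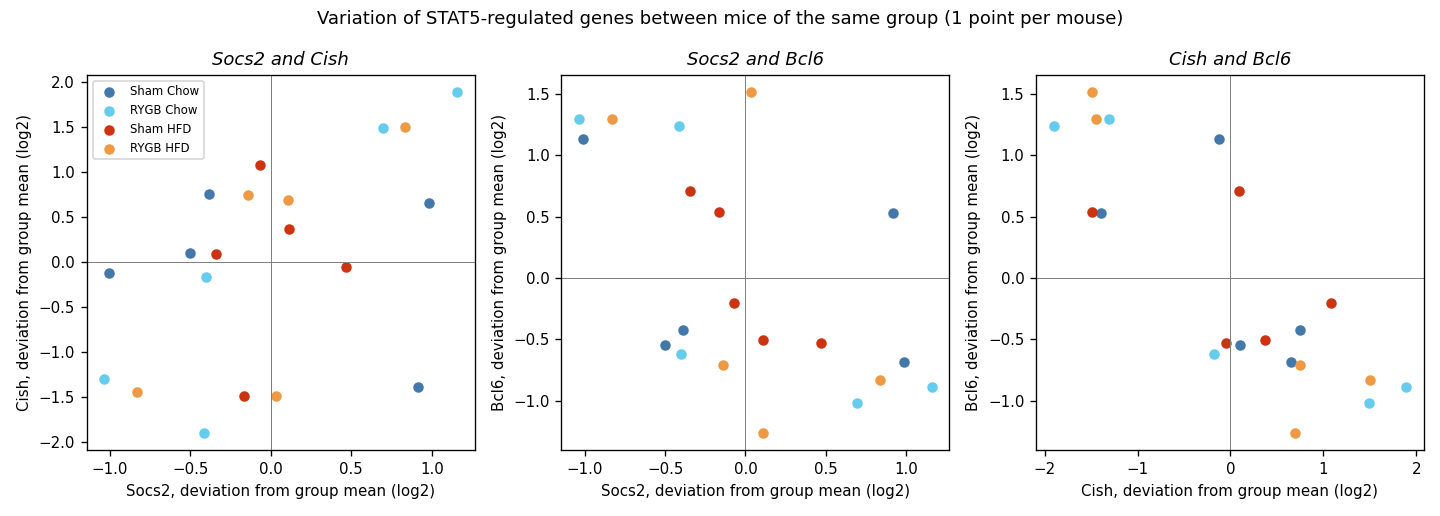
Deviation of each mouse from its group mean (log2 of CPM + 0.5) for 3 pairs of members, with 1 point per mouse coloured by group. In the right panel, 7 of the 8 mice with high *Bcl6* have *Cish* below the group mean, and no mouse has *Bcl6* between -0.207 and 0.528. The left panel shows *Socs2* with *Cish* and the middle panel *Socs2* with *Bcl6*.

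*Igf1* and *Igfals* deviated in the same direction (r = 0.679, permutation p = 0.00313, adjusted p = 0.0141, and rho = 0.662, permutation p = 0.00614, adjusted p = 0.0276). Without the 2 mice farthest from the median of *Igf1*, r was 0.687 (adjusted permutation p = 0.0367), while rho of 0.639 missed the threshold (0.0644). In sham mice alone r was 0.781 (adjusted permutation p = 0.109, n = 10) and in mice with RYGB alone 0.584 (adjusted permutation p = 0.331, n = 10). For *Socs2* and *Bcl6*, r was -0.575 (permutation p = 0.0235, adjusted p = 0.0704) and rho -0.602 (permutation p = 0.0125, adjusted p = 0.0376), and without the 2 farthest mice both missed the threshold (adjusted p = 0.163 and 0.189). For *Socs2* and *Cish*, r was 0.493 (adjusted permutation p = 0.131), and 0.343 without the 2 mice farthest from the median of *Socs2* (adjusted permutation p = 0.32). Taken separately, r was 0.836 in mice with RYGB (adjusted permutation p = 0.0455, with rho of 0.782 at 0.0915) and -0.142 in sham mice (adjusted permutation p = 0.886). The difference between these 2 values was not tested. Neither *Socs2*, *Cish* nor *Bcl6* passed with *Igf1*, at r of 0.260, 0.188 and -0.393 (adjusted permutation p = 0.39, 0.573 and 0.139). *Ghr* did not pass with *Igf1* (r = -0.090) or *Igfals* (r = 0.115), with an adjusted permutation p of 0.738 for both, which does not show that no relation exists.

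Among all tested genes, *Igfals* had the pattern most like that of *Igf1* over the 20 mice (Pearson's r of log2 levels 0.835), followed by *Urad*, an enzyme of urate breakdown (0.825), and the carboxylesterase *Ces3b* (0.820). The genes most like *Socs2* were *Lrwd1* (0.883), the cell cycle repressor *E2f8* (0.875) and *Prdm2* (0.872). Those most like *Bcl6* were the chemokine *Cxcl12* (0.809), *Gm49012* (0.804) and *Trim80* (0.714). These are the 3 highest of all tested genes for each member, the mice share groups and libraries, and the values are a description without a test.

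Other genes of growth hormone receptor signalling were taken from a list of 25, of which 23 were tested, and in Sham Chow vs. Sham HFD 4 rose and 0 fell (10.9% and 10.7% of all tested genes), with a list median of 0.126 beside -0.005 for all tested genes. They were the phosphatase *Ptpn6*, which acts on JAK2 (log2 change 0.45, SE 0.068, adjusted p = 0.00012), the membrane protein *Sirpa* (1.20, SE 0.22, adjusted p = 0.000887), the kinase *Tyk2* (0.28, SE 0.073, adjusted p = 0.0102) and the IGF binding protein *Igfbp3* (0.76, SE 0.20, adjusted p = 0.0112). *Ptpn6* and *Sirpa* are also abundant in macrophages, and 6 of 8 macrophage markers were higher in Sham HFD, where their summed level was 226 to 302 CPM against 93.2 to 242 CPM in Sham Chow. The part of these cells in the result was not tested. In Sham HFD vs. RYGB HFD 2 rose and 1 fell (8.54% and 7.9% of all tested genes). The insulin receptor substrate *Irs2* rose by 0.68 (SE 0.20, adjusted p = 0.0206), the inhibitor *Socs3* rose by 0.74 (SE 0.24, adjusted p = 0.0422) and *Igfbp3* fell by 0.74 (SE 0.20, adjusted p = 0.015). Without Sham HFD replicate 2 only 1 gene of the list was called, and it was lower. Leaving out any other mouse of Sham HFD or RYGB HFD, or Sham Chow replicate 3, left 1 called higher. With library sizes only, 0 of the list were called higher and 2 lower.

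*Igfbp3*, whose product is a partner of the *Igfals* product in the circulating IGF1 complex, was 11.2 ± 3.94 CPM (SD, n = 5) in Sham Chow, 14.1 ± 3.61 (n = 5) in RYGB Chow, 19.0 ± 3.19 (n = 5) in Sham HFD and 11.4 ± 1.23 (n = 5) in RYGB HFD. Every Sham HFD mouse lay above every Sham Chow and every RYGB HFD mouse. The RYGB Chow mice, at up to 17.55 CPM, overlapped with the Sham HFD mice, which began at 16.53 CPM. It was the only gene of this list that edgeR called in the interaction (-1.07, SE 0.29, adjusted p = 0.0343), 1 of 23 where 5.06% of all tested genes were called. No gene of the list was called there without Sham Chow replicate 4 or 5, RYGB Chow replicate 1, 4 or 5, Sham HFD replicate 2 or 3, or RYGB HFD replicate 2 or 5, and 2 were without RYGB Chow replicate 2 or 3. Liver *Igfbp3* comes mostly from non-parenchymal cells. All 5 stellate cell markers were higher in Sham HFD than in Sham Chow, at 288 to 337 against 132 to 215 CPM summed, and 3 of 5 were lower in RYGB HFD, at 186 to 284 CPM. Of the endothelial markers 0 of 5 were called in either comparison. Of the macrophage markers 6 of 8 were higher in the first, and 0 of 8 were called in the second. The part of these cell types in the result was not tested. For surgery on chow and for diet after RYGB, edgeR called 0 of the 23 (0.057% and 3.65% of all tested genes), with 3 at an unadjusted p below 0.05 in each (10.8% and 18.8%). DESeq2 called 1 and 0, and limma-voom 0 and 0.

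Male-biased targets of growth hormone fell with HFD in sham mice. Of 17 such genes listed, 16 were tested, and 14 were lower and 0 higher in Sham HFD than in Sham Chow (10.7% and 10.9% of all tested genes), with a median log2 change of -1.88. *Hsd3b5*, a steroid enzyme typical of male mouse liver, was 146 ± 64.2 CPM (SD, n = 5) in Sham Chow and 1.17 ± 2.08 (n = 5) in Sham HFD, where 4 mice lay between 0.0438 and 0.507 CPM and Sham HFD replicate 1 at 4.87 CPM. Its log2 change was -7.07 (SE 0.74, adjusted p = 3.71e-06). *Serpina1e*, a plasma protease inhibitor, fell by 4.32 (SE 0.45, adjusted p = 3.71e-06), the glutathione transferase *Gstp1* fell by 1.68 (SE 0.19, adjusted p = 7.71e-06) and the fatty acid hydroxylase *Cyp4a12b* fell by 5.28 (SE 0.66, adjusted p = 1.69e-05). All of *Serpina1e*, *Gstp1*, *Cyp4a12b* and *Cyp4a12a* have close copies in the genome, so the split of reads between copies is uncertain.

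In Sham HFD vs. RYGB HFD 10 of the 16 were higher and 0 lower (8.54% and 7.9% of all tested genes), with a median of 1.62 beside 0.009 for all tested genes. *Hsd3b5* rose by 7.57 (SE 0.75, adjusted p = 2.14e-06), to 207 ± 68.6 CPM (n = 5), *Serpina1e* by 4.32 (SE 0.45, adjusted p = 3.19e-06), *Cyp4a12b* by 4.02 (SE 0.65, adjusted p = 0.000236) and the complement protein *C6* by 1.77 (SE 0.24, adjusted p = 4.34e-05). *Gstp1* and *Cyp4a12a* were low on HFD after either operation. *Gstp1* was 999 ± 145 CPM (n = 5) in Sham Chow, 926 ± 198 (n = 5) in RYGB Chow, 312 ± 65.6 (n = 5) in Sham HFD and 400 ± 122 (n = 5) in RYGB HFD. *Cyp4a12a* was 236 ± 45.7, 196 ± 70.8, 40.3 ± 13.0 and 58.1 ± 28.1 CPM in the same order (n = 5 each). These were the 2 of 16 called lower in RYGB Chow vs. RYGB HFD (1.65% of all tested genes), by 1.21 (SE 0.19, adjusted p = 0.00086) and 1.76 (SE 0.32, adjusted p = 0.00373). With DESeq2 6 of the list were called there, 5 lower and 1 higher, and 4 were called by edgeR without Sham Chow replicate 1 or RYGB HFD replicate 5.

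**Figure D4:**
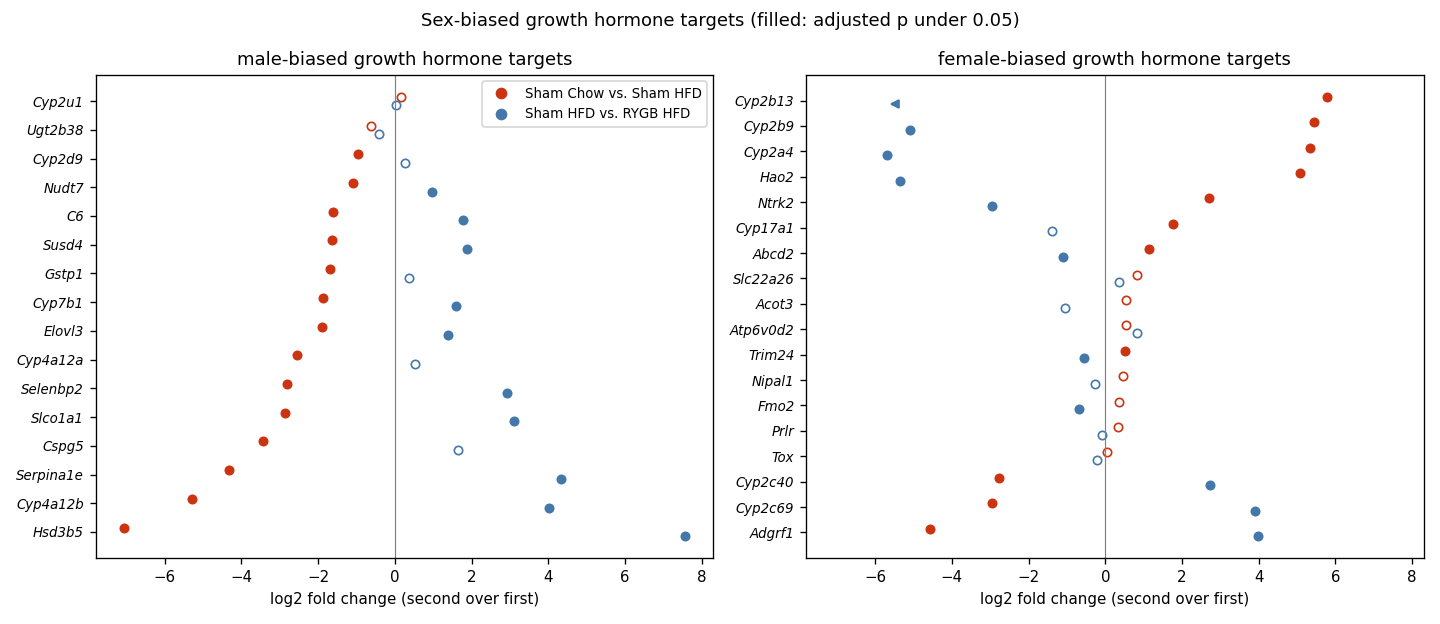
Log2 fold change (horizontal axes) of the tested male-biased (left panel) and female-biased (right panel) targets of growth hormone (vertical axes, one line per gene) in Sham Chow vs. Sham HFD (red) and Sham HFD vs. RYGB HFD (blue), which share the Sham HFD mice. Filled symbols have an adjusted p below 0.05, and the triangle for *Cyp2b13* marks a bound, at least 44.3-fold lower. On the left, 14 red circles are filled at values below 0 and 10 blue circles at values above 0.

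Female-biased targets moved less uniformly. Of 25 listed, 18 were tested, and in Sham Chow vs. Sham HFD 8 were higher and 3 lower (10.9% and 10.7% of all tested genes), with a median log2 change of 0.543. In Sham HFD vs. RYGB HFD 8 were lower and 3 higher (7.9% and 8.54% of all tested genes), with a median of -0.622. *Cyp2b9* was 6.17 ± 8.00 CPM (SD, n = 5) in Sham Chow, 11.0 ± 9.25 (n = 5) in RYGB Chow, 260 ± 119 (n = 5) in Sham HFD and 7.59 ± 1.85 (n = 5) in RYGB HFD. Its log2 change was 5.45 (SE 0.74, adjusted p = 4.6e-05) for diet in sham mice and -5.10 (SE 0.73, adjusted p = 7.45e-05) for surgery on HFD. *Cyp2a4* rose by 5.34 (SE 0.75, adjusted p = 6.02e-05) and fell by 5.70 (SE 0.77, adjusted p = 4.62e-05) in these comparisons, and the peroxisomal oxidase *Hao2* rose by 5.08 (SE 0.67, adjusted p = 3e-05) and fell by 5.34 (SE 0.69, adjusted p = 2.71e-05). *Cyp2b13* rose by 5.78 (SE 0.67, adjusted p = 2.71e-05), to 7.59 ± 3.20 CPM (n = 5), and had 0 counts in all 5 RYGB HFD mice, which is at least 44.3-fold lower when each library is set at 3 counts.

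The 3 that went the other way in Sham Chow vs. Sham HFD were *Cyp2c40*, *Cyp2c69* and *Adgrf1*, and they were also the 3 called higher in Sham HFD vs. RYGB HFD. limma-voom called 1 gene of the list in that direction in each comparison. *Adgrf1*, an adhesion G protein-coupled receptor, was 11.9 ± 4.19 CPM (SD, n = 5) in Sham Chow, 6.44 ± 3.24 (n = 5) in RYGB Chow, 0.504 ± 0.418 (n = 5) in Sham HFD and 7.91 ± 3.73 (n = 5) in RYGB HFD. Its place in the female-biased list is uncertain, and it is also the gene of that list called higher in the interaction. *Cyp2a4* was the 1 of 18 called in RYGB Chow vs. RYGB HFD, where it fell by 3.30 (SE 0.79, adjusted p = 0.0245) and 1.65% of all tested genes were called lower. This call was lost with limma-voom and with only the 2 groups in the model. It was also lost without RYGB Chow replicate 3, the mouse with the highest level of that group (13.2 CPM), and without RYGB HFD replicate 1, 3 or 4. Reads of *Cyp2a4*, *Cyp2b9*, *Cyp2b13* and the *Cyp2c* genes can align to near-identical relatives, and their values are uncertain to that extent.

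For surgery on chow, edgeR called 0 of 16 male-biased and 0 of 18 female-biased genes (0.057% of all tested genes), with 1 and 2 at an unadjusted p below 0.05 (10.8%), and DESeq2 and limma-voom also called 0. In the interaction 9 of 16 male-biased genes were called higher and 0 lower (2.48% and 2.58% of all tested genes), and of the female-biased genes 1 was higher and 3 lower. These lists and the members were chosen with earlier results of these data known, and their counts are a description. With diet in sham mice 2 of 6 hepatocyte markers were lower, at 67100 to 79900 CPM summed in Sham HFD against 77900 to 98000 CPM in Sham Chow. In Sham HFD vs. RYGB HFD 3 of 6 were higher and 1 lower, at 93500 to 113000 CPM summed in RYGB HFD. The share of these moves in the results for *Igf1*, *Igfals* and the sex-biased genes was not tested.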

How the data were processed

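Liver RNA of 20 male mice, 5 in each of 4 groups, was sequenced as poly-A selected, strand-marked libraries on an Illumina platform. Per the submitters' processing notes, the authors trimmed reads with Trimmomatic 0.36, checked them with FastQC, aligned them to mm10 with HISAT2 2.1.0 and counted them per Ensembl gene with featureCounts 1.5.0-p3. They deposited raw counts without normalization. The annotation release, the strand setting and the treatment of reads that fit several genes are not given in the sources used here. Symbols and positions came from GENCODE M21 (GRCm38), which named 54495 of 54532 genes, and promoter sequences from RefSeq (GRCm38.p6).

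The test took the 12289 genes that reached 2 CPM in 3 or more mice, a filter applied to all 20 mice without regard to group. The main test was edgeR's quasi-likelihood test (edgeR 4.0.16, R 4.3.3) with TMM factors and the group as the only term, two-sided. The standard error is the size of the log2 fold change divided by the square root of F. The authors tested with DESeq2. Alternatives were DESeq2 1.42.0, limma-voom (limma 3.58.1), RLE factors, library sizes only, no filter, a filter at 5 CPM, models of only the 2 groups compared, the replicate number as a block, and each mouse left out in turn (20 fits). For *Cux2*, and as an alternative for all members, log2 of CPM + 0.5 was compared by exact permutation over all 252 splits. Correlations used deviations from group means and 100000 permutations within groups. Sham and RYGB mice alone, and the mice on either side of the gap in *Bcl6*, were added after seeing the data. Permutations and plots were made in Python 3.11.15 (scipy 1.17.1, matplotlib 3.10.9), and the fits were tested on simulated data.

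The members and the lists were chosen with earlier results of these data known. The text names the 10 members, in each list and comparison up to 4 called genes with the smallest p, and the 3 genes most like *Igf1*, *Socs2* and *Bcl6*. *Stat3*, *Cyp2c40* and *Cyp2c69* were named after their values were seen. Of the 3 lists, *Socs1*, *Igf2*, *Moxd1* and 7 female-biased genes failed the filter. Total counts of 14604854 to 22537498 per mouse set the precision. Counts are reads without molecular identifiers, so the floor of 3 counts covers counting error only. Each mouse is an animal of its own, and no sequencing batch is named in the labels, so no within-batch values could be given.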

Additional observations from a re-analysis of the deposited data

Results flagged for a closer look

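In groups of 5 mice, 1 mouse can lie far from the other 4. Of 108 groups (27 genes in 4 groups), 7 held such a mouse by Dixon's 95% limit, and chance gives about 1 in 20 groups. For the members there was 1: *Cux2* in RYGB Chow replicate 3 was at 2.42 CPM, with the other 4 mice at 0.269 to 0.440 CPM. The same mouse stood apart in *Cyp2a4* (13.2 CPM against 0.323 to 3.06) and in *Irs2* (51.8 CPM against 24.2 to 29.0). It had the lowest *Ghr* (386 CPM) and the highest *Socs2* (67.0 CPM) and *Cish* (41.0 CPM) of all 20 mice. Its library also had the lowest share of reads in its 10 most abundant genes, 14.44%. The part of such a library difference in its values was not tested. Sham HFD replicate 1 stood above its group in *Hsd3b5* (4.87 CPM against 0.0438 to 0.507) and in *Serpina1e* (517 CPM against 91.2 to 133). *Gstp1* was low in RYGB Chow replicate 1 (580 CPM against 973 to 1080), and *Cyp2b9* was low in RYGB HFD replicate 3 (4.32 CPM against 7.93 to 8.69).

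The change with diet differed between sham mice and mice with RYGB by the interaction term of the edgeR model (log2, adjusted p-values over all tested genes) for 11 of the genes named. Genes of the lists were named in part by their p in this same term, so the 11 are a description and not a test. Of all tested genes 5.06% were called in it, and further called genes of the lists are not named here. It was 0.77 for *Igf1* (adjusted p = 0.00597) and 0.72 for *Igfals* (0.0217). Among male-biased targets it was 7.86 for *Hsd3b5* (7.09e-05), 4.62 for *Cyp4a12b* (0.00295), 4.02 for *Serpina1e* (0.000494) and 1.67 for *C6* (0.00676). Among genes of the female-biased list it was -8.64 for *Cyp2a4* (0.000159), -5.98 for *Cyp2b9* (0.00179), -5.79 for *Hao2* (0.00461) and 4.87 for *Adgrf1* (0.000301). For *Igfbp3* it was -1.07 (0.0343).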

How the results depend on the processing

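The calls of *Igf1* in Sham Chow vs. Sham HFD, in Sham HFD vs. RYGB HFD and in the interaction, and those of *Stat5a* and *Socs2* in Sham Chow vs. Sham HFD, were kept in every alternative fit. Library sizes only left 1 member called in the interaction, where the median of all tested genes moved to -0.125, and 7 signalling genes in Sham Chow vs. Sham HFD. DESeq2 called 1 signalling gene in Sham Chow vs. RYGB Chow, 2 in the interaction and 6 male-biased genes in RYGB Chow vs. RYGB HFD. Female-biased calls in RYGB Chow vs. RYGB HFD numbered 0 with limma-voom and with only the 2 groups, and 2 without the filter. Over all genes, Sham Chow vs. RYGB Chow gave 92 calls with DESeq2, 3 with limma-voom, 13 without the filter and 0 with only the 2 groups, and RYGB Chow vs. RYGB HFD gave 751 with DESeq2 and 184 with only the 2 groups. The causes were not tested.

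Differences near 0 that were not called changed sign with library sizes only: *Ghr* (-0.06) and *Stat5b* (-0.10) in the interaction, *Stat5b* in Sham HFD vs. RYGB HFD (-0.03) and *Socs2* in Sham Chow vs. RYGB Chow (0.08). Less the shift of the median of all tested genes (-0.125, -0.083 and 0.049), *Ghr* (0.067) and *Stat5b* (0.027 and 0.055) kept their sign and *Socs2* was at 0.027. The interaction of *Bcl6*, 0.00 in the main fit, was -0.20 with limma-voom, -0.00 with RLE factors, -0.09 with library sizes only, -0.01 without the filter and -0.02 with a filter at 5 CPM. *Bcl6* spread widely within groups, so a value near 0 does not show that there was no interaction. In sham mice only, correlations of deviations turned sign for *Socs2* and *Cish* (-0.14) and for *Ghr* and *Igfals* (-0.10). Those of *Cish* and *Bcl6* (-0.56) and of *Igf1* and *Igfals* (0.78) kept their sign but did not pass with 10 mice. In RYGB mice only, they turned sign for *Socs2* and *Igf1* (-0.06) and for *Ghr* and *Igf1* (0.06). There *Socs2* and *Cish* (0.84) passed by r but not by rho, and *Igf1* and *Igfals* (0.58) did not pass with 10 mice. Differences between sham and RYGB mice in these values were not tested. *Cish* and *Bcl6* gave -0.37 below and -0.23 above the gap in *Bcl6*, and *Ghr* and *Igfals* -0.02 without the 2 mice farthest in *Ghr*.

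The labels do not say what the replicate number stands for, and the data gave no sign that it pairs the mice. Over 30 pairs of same-numbered mice, deviations correlated at -0.257 to 0.16 (mean -0.007), 5 pairs passed 0.1, and 2 of 20 mice were nearest their own number. With the replicate block, 0 signalling genes were called in the interaction, 0 female-biased genes in RYGB Chow vs. RYGB HFD, and the interaction of *Bcl6* was -0.27. Correlations with the block removed were -0.29 for *Socs2* and *Igf1*, 0.20 for *Ghr* and *Igf1* and 0.416 for *Ghr* and *Igfals*. None of these passed (adjusted permutation p = 0.386, 0.523 and 0.206).

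Leaving out each mouse in turn gave 1 to 3 members in Sham HFD vs. RYGB HFD (1 without RYGB HFD replicate 2) and 1 to 2 in the interaction (1 without Sham Chow replicate 5). It gave 1 to 4 signalling genes in Sham HFD vs. RYGB HFD (1 without Sham HFD replicate 2) and 0 to 2 in the interaction, and in RYGB Chow vs. RYGB HFD 2 to 4 male-biased and 0 to 1 female-biased genes. Over all genes it gave 0 to 15 calls in Sham Chow vs. RYGB Chow, 253 to 483 in RYGB Chow vs. RYGB HFD and 386 to 802 in the interaction. Signs of differences that were not called turned for *Ghr* (-0.02 to 0.12), *Stat5b* (-0.06 to 0.11) and *Bcl6* (-0.45 to 0.37) in the interaction. They turned for *Jak2* (-0.03 to 0.10), *Stat5b* (-0.04 to 0.13) and *Socs2* (-0.38 to 0.28) in Sham Chow vs. RYGB Chow, for *Cish* in Sham HFD vs. RYGB HFD (-0.03 to 0.79), and for *Cish* (-0.38 to 0.67) and *Bcl6* (-0.16 to 0.66) in RYGB Chow vs. RYGB HFD. At this spread, 5 mice per group left intervals of about 2 log2 units or more for *Cish* and *Bcl6*.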
